A study of Homo sapiens with 3 samples.

Results

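The AP-1 transcription factor subunits FOS, FOSB, FOSL1, FOSL2, JUN, JUNB, JUND and ATF3 were followed in the breast cancer line MDA-MB-231, an established human line generally regarded as lacking oestrogen receptor alpha. Members were the probe sets that the platform annotation pairs with exactly 1 of these symbols, which gave 20 of 41097 single-symbol probe sets and 8 of 19775 genes. There were 3 arrays, 1 per group. The estradiol cells received 1 µM of the hormone for 3 h, the ERα17p cells received 1 µM of a peptide derived from the receptor for 3 h, and the vehicle cells received 0.1% ethanol for 3 h. All cells had spent 4 h beforehand in 10% serum stripped of steroids with charcoal, and the treatments were given in the same kind of serum. The labels name no solvent for the peptide, and they give an ethanol percentage only for the vehicle cells. The study addressed early transcript responses to the hormone and to the peptide. With 1 array in each group there was no replicate error and no test, and each difference describes these arrays only.

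AP-1 is a dimer of basic leucine zipper (bZIP) proteins that binds short DNA elements and drives growth, invasion and stress genes. JUN proteins pair with each other or with FOS proteins, FOS proteins need a JUN partner, and ATF3 can pair with JUN proteins. FOS, FOSB, JUN, JUNB and ATF3 are immediate early genes, whose transcripts appear quickly and briefly after growth factors, serum or stress, whereas JUND is made more steadily. FOSL1, which encodes FRA-1, is the FOS family member best known from mesenchymal-like, invasive breast cancer cells such as these.

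The deposited numbers were read as log2 units, a base that no source states and on which every fold here rests. They were centred for each probe set on some reference level, and the sources do not describe it. Expression levels, detection calls and comparisons of level between genes cannot be had from them, so the identity of the cells could not be checked by marker level, and any of these genes may have been close to background. In bulk RNA, fewer expressing cells and less RNA per cell cannot be told apart. On the vehicle array, the labelling spikes, bacterial RNAs added before labelling, also stood apart. Their median over 27 probe sets was 2.03 higher with estradiol and 2.04 higher with ERα17p than with vehicle. Over 18 probe sets of hybridisation spikes, which enter after labelling, the median differences were -0.74 with estradiol and -0.93 with ERα17p. The SD over all 54675 probe sets was 0.260 with estradiol, 0.241 with ERα17p and 0.494 with vehicle. The part of these technical differences in the results below was not tested. Both comparisons with vehicle use the same vehicle array, so they are not independent.

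The promoters of the 4 members with the largest differences from vehicle, and of FOSL2, whose gene value hardly differed, are shown because AP-1 and ATF proteins bind at several of these genes themselves. They are RefSeq sequences of GRCh38.p14, each running from 250 bases before the annotated start to 50 bases after it, and 7 of the 8 members had an entry. ATF3 had 2 entries, for 2 starts, which makes 8 member entries. FOS lies at chr14:75278578-75278877 (plus strand), FOSB at chr19:45467746-45468045 (plus), JUN at chr1:58783998-58784297 (minus), JUNB at chr19:12791236-12791535 (plus) and FOSL2 at chr2:28392608-28392907 (plus). Capitals mark TGACG on either strand, the core of a cAMP response element. They also mark the AP-1 and ATF type patterns TGANTCA and TGANNTCA, where N is any base. A match such as TGACATCA therefore need not be a palindrome. A TGACGTCA match holds both TGANNTCA and TGACG.
FOS: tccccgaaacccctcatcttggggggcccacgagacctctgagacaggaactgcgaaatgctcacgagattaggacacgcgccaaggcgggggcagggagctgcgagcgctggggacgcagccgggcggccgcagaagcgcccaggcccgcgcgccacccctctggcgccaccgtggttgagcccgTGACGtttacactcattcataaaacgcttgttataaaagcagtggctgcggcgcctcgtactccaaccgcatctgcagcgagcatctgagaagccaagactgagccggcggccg
FOSB: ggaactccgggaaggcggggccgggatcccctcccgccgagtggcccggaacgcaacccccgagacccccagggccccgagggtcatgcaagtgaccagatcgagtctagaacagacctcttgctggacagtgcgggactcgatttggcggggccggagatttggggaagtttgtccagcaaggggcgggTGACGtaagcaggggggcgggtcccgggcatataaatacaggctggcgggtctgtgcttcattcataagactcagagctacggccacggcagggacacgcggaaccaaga
JUN: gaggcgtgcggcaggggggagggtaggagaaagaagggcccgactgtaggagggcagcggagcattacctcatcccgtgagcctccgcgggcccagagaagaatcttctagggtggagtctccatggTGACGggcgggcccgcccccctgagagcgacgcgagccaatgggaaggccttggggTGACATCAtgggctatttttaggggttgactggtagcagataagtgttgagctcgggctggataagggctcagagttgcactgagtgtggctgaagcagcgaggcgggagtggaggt
JUNB: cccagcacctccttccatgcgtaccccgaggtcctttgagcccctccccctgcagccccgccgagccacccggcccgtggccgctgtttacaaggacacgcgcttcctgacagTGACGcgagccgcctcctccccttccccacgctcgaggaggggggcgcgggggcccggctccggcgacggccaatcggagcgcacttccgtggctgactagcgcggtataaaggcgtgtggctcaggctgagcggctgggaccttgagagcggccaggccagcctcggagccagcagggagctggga
FOSL2: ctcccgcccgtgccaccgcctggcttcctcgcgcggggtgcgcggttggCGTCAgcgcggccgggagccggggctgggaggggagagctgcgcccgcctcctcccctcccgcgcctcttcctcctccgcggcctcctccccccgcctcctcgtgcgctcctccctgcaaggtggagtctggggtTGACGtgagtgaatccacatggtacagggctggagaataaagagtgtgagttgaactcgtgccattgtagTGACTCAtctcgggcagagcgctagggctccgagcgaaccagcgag

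TGACG was present in 6 of the 8 member entries, and in 24.6% of 35116 promoter entries of the same length. In FOS it lay at -64 to -60 and in FOSB at -60 to -56, counted from the annotated start as 0. TGANNTCA occurred in 3 of the 8 member entries (JUN, JUND and 1 of the 2 of ATF3) and in 11.5% of all entries. The JUN match, at -67 to -60, reads TGACATCA. TGANTCA occurred in 1 of the 8 member entries, that of FOSL2, at 4 to 10, and in 7.71% of all entries. The CArG box, the core of the serum response element, had 0 matches in these members' windows and was found in 1.29% of all entries. Windows of this length need not hold elements that lie farther upstream, and these matches describe letters, not binding.

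Among the FOS family, FOS and FOSB were the members at least 1.5-fold from vehicle. FOS, the founding subunit, had a value of 0.44 with estradiol and 0.55 with ERα17p, against 1.75 on the vehicle array. FOSB, its close relative, had -0.02 with estradiol and 0.32 with ERα17p, against 1.67 on the vehicle array. In both genes the vehicle array was high and the treated arrays lay nearer to the reference. The difference of FOS from vehicle was -1.32 with estradiol (2.49-fold lower) and -1.21 with ERα17p (2.31-fold lower). That of FOSB was -1.70 with estradiol (3.25-fold lower) and -1.35 with ERα17p (2.55-fold lower). For estradiol FOSB ranked 52 and FOS 151 from the lowest of 19775 genes, and for ERα17p they ranked 151 and 245. Each of these genes rests on 1 probe set, so no second probe set checks its value.

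The values of FOSL1 and FOSL2 on the 3 arrays lay closer together. FOSL1 had 0.03 with estradiol and -0.20 with ERα17p, against 0.11 on the vehicle array, and differed from vehicle by -0.08 and -0.31. FOSL2, which encodes FRA-2, had gene values of 0.03 with estradiol and 0.02 with ERα17p, against 0.00 on the vehicle array. Its 5 probe sets did not share a direction, and 2 of them were below vehicle in each comparison. Their differences from vehicle ran between -0.56 and 0.34 with estradiol and between -0.57 and 0.50 with ERα17p. The lowest was 218881_s_at and the highest 225262_at in both, and 0 of the 5 reached 1.5-fold.

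All 3 JUN family genes were lower than vehicle. JUN, the main partner of FOS, had a median over its 4 probe sets of -0.13 with estradiol and -0.06 with ERα17p, against 1.03 on the vehicle array. Its difference from vehicle was -1.16 with estradiol (2.23-fold lower) and -1.09 with ERα17p (2.12-fold lower), and all 4 probe sets were below vehicle in both comparisons. The size varied widely between them. The probe set 213281_at had -0.72 with estradiol and 0.00 with ERα17p, against 1.75 with vehicle, and 201465_s_at had -0.02 and 0.03, against 1.47. The probe sets 201466_s_at and 201464_x_at differed less, with 0.60 and 0.41 on the vehicle array and between -0.19 and -0.10 on the treated arrays. Without probe sets ending in _s_at or _x_at, which can match several transcripts, 213281_at alone remained and put JUN at -2.46 with estradiol and -1.75 with ERα17p.

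JUNB, which often opposes JUN in growth control, had 0.03 with estradiol and 0.14 with ERα17p, against 1.44 on the vehicle array. Its difference from vehicle, from 1 probe set, was -1.41 with estradiol (2.65-fold lower) and -1.30 with ERα17p (2.47-fold lower). JUND, the steadily made member, differed least of the family, with medians of -0.02 and -0.02 on the estradiol and ERα17p arrays, against 0.60 on the vehicle array. Its difference was -0.61 with estradiol and -0.62 with ERα17p, just past the 1.5-fold limit of 0.585. Of its 4 probe sets 3 were lower, while 229117_s_at was 0.16 and 0.43 higher. With the mean of the probe sets JUND fell short of the limit, at -0.46 and -0.45. After quantile normalisation, which forces the 3 arrays to 1 distribution of values, it also fell short, at -0.44 and -0.45.

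ATF3, a stress-induced bZIP factor, gave different pictures in its 3 probe sets, all of which were below vehicle. The probe set 202672_s_at had 0.40 with estradiol and 0.09 with ERα17p, against 1.91 with vehicle, the highest value of any member probe set on the vehicle array. The probe set 1554980_a_at had 0.52 and -0.16, against 0.68, and 1554420_at had -0.24 and -0.30, against -0.10. The gene difference was -0.28 with estradiol, short of 1.5-fold, and -0.84 with ERα17p (1.79-fold). With the mean of the probe sets the estradiol value passed the limit, at -0.61, and after quantile normalisation it was 0.03. Without probe sets ending in _s_at or _x_at the ERα17p value fell short of it, at -0.52.

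**Figure D1:**
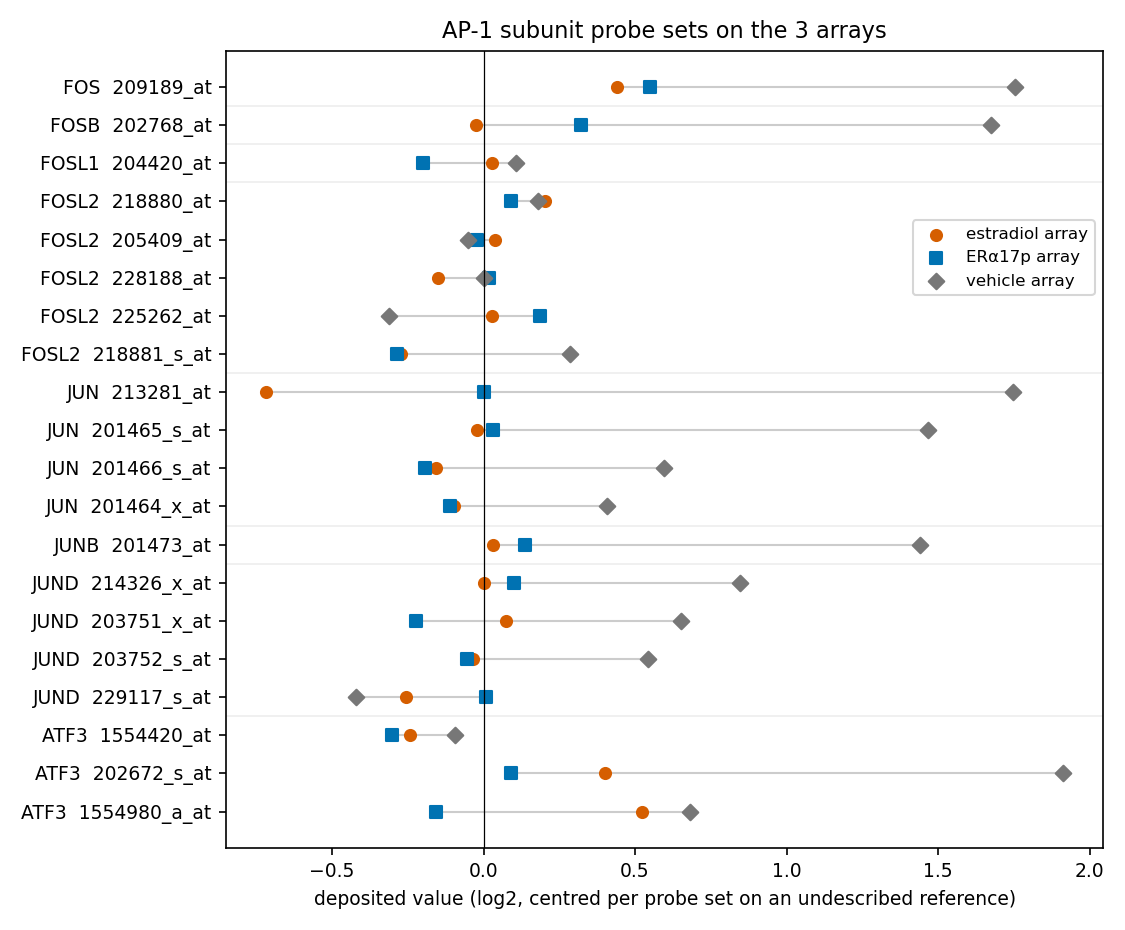
Deposited centred log2 value, with 0 as the undescribed reference (horizontal axis), of the 20 AP-1 probe sets (rows, grouped by gene) on the estradiol (circles), ERα17p (squares) and vehicle (diamonds) arrays, with grey lines joining the lowest and highest array. The vehicle diamonds of FOS, FOSB and JUNB and of 2 JUN probe sets lie between 1.44 and 1.75, to the right of both treated arrays, while those of FOSL2 lie between -0.31 and 0.29.

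Over the 8 members, 5 were at least 1.5-fold lower with estradiol than with vehicle and 0 were higher. Over all genes the shares were 8.25% lower and 10.4% higher. With ERα17p 6 members were lower and 0 higher, beside 8.53% and 9.27% of all genes. At 2-fold, 4 members were lower in each comparison (FOSB, JUNB, FOS and JUN), beside 2.14% of all genes with estradiol and 2.44% with ERα17p. The members' median was -0.89 with estradiol and -0.96 with ERα17p, and the median over all genes was 0.0035 and 0.0025. Among genes with 1 probe set, as FOS, FOSB, FOSL1 and JUNB are, 9.72% were at least 1.5-fold lower with estradiol and 10.3% with ERα17p. By probe set, 8 of 20 were lower with estradiol, beside 11.4% of all probe sets, and 11 of 20 with ERα17p, beside 11.0%.

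In both comparisons with vehicle, which use the same vehicle array, the order of the members was alike at its ends. FOSB was lowest in each of them, then JUNB, FOS and JUN, and FOSL2 was highest. ATF3 came after JUND with estradiol and before it with ERα17p. Neighbours from FOSB to JUN lay within 0.29 of each other with estradiol and within 0.12 with ERα17p, less than the spread among JUN's own probe sets (between -2.46 and -0.50 with estradiol), so their order cannot be told from probe set spread.

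**Figure D2:**
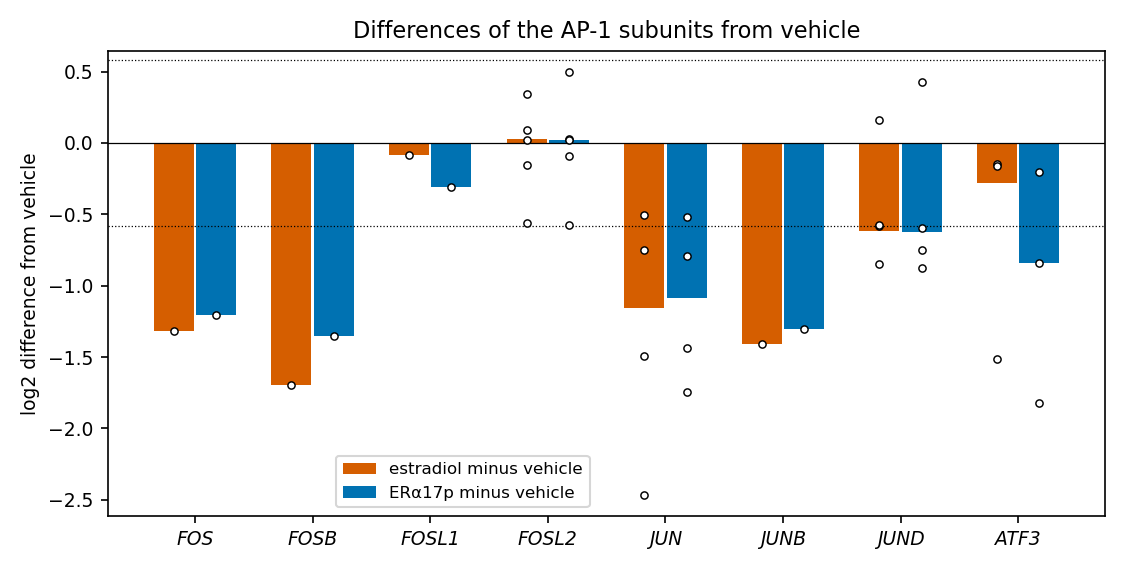
Log2 difference from vehicle (vertical axis) of each AP-1 gene, with bars for the gene value (estradiol left, ERα17p right), open circles for single probe sets and dotted lines at 1.5-fold. Bars of FOS, FOSB, JUN and JUNB reach -1.09 or below for both treatments, and those of FOSL2 stay at 0.03 and 0.02.

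**Figure D3:**
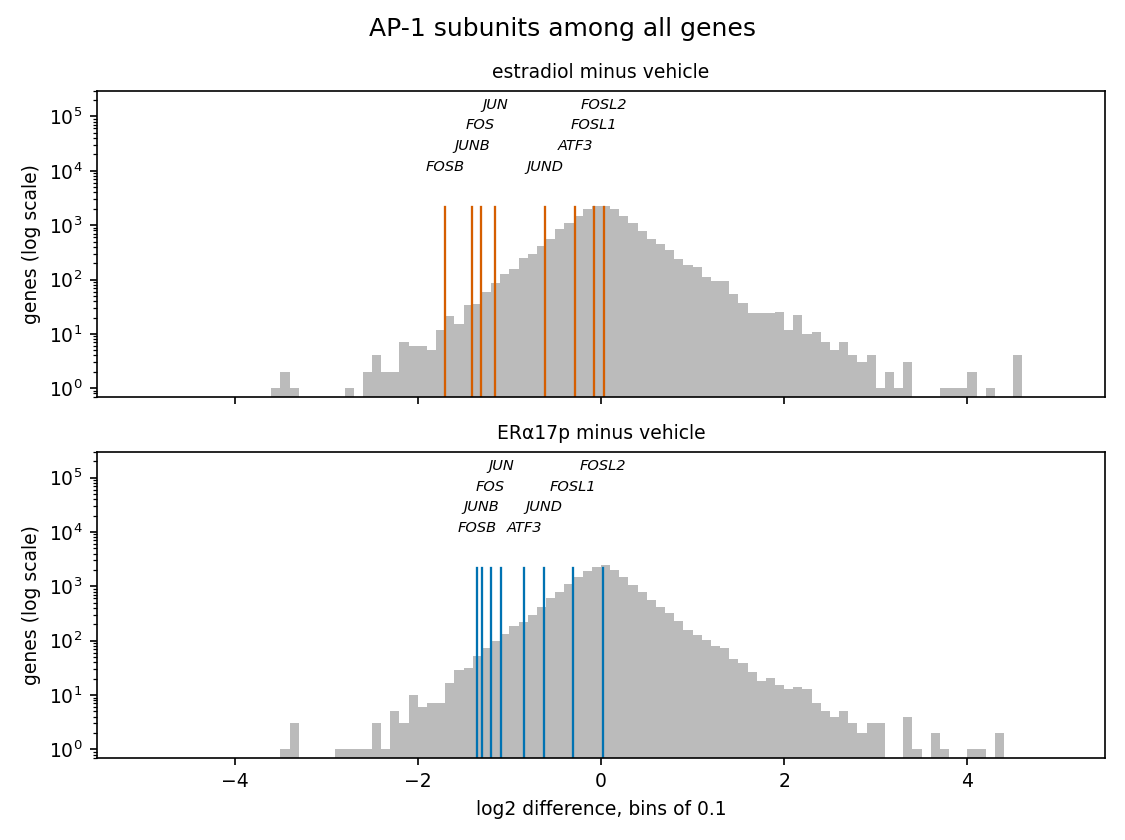
Number of genes (log scale, vertical axis) by log2 difference from vehicle in bins of 0.1 (horizontal axis), for estradiol (top) and ERα17p (bottom), with coloured lines at the 8 AP-1 genes. FOSB stands at -1.70 and -1.35, in the lower tail of the 19775 genes, and FOSL2 near their centre.

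Quantile normalisation reduced the differences from vehicle of the called members. It was applied to the deposited centred values, whose SD was 0.494 with vehicle, 0.260 with estradiol and 0.241 with ERα17p. Giving these arrays the same distribution narrows the vehicle array, so some reduction follows from the method itself. FOS fell short of 1.5-fold, at -0.54 with estradiol and -0.31 with ERα17p. FOSB, JUNB and JUN stayed past it, at -1.08, -0.88 and -0.81 with estradiol and -0.64, -0.76 and -0.74 with ERα17p. The count of members called lower was then 3 with estradiol, beside 6.1% of all genes under the same normalisation, and 4 with ERα17p, beside 7.44%.

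Set against the deposited reference in place of vehicle, the treated arrays held no called member. On the estradiol array 0 of 8 members were at least 1.5-fold above or below the reference, beside 1.28% of genes above it and 0.516% below. On the ERα17p array the count was also 0 of 8, beside 0.496% and 0.632%. On the vehicle array 6 of 8 were above it (all except FOSL1 and FOSL2) and 0 below, beside 4.97% and 5.98% of genes. The farthest gene value on a treated array was that of FOS, at 0.44 and 0.55 above the reference. Which arrays made up the reference is unknown, so whether the vehicle cells had high or the treated cells low AP-1 transcripts cannot be told apart.

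Set directly against each other, the treated arrays differed little in these genes. The vehicle array is not subtracted in these differences. Whether it took part in the processing of the treated arrays before deposit is not stated. With ERα17p 0 of 8 members were at least 1.5-fold higher or lower than with estradiol, beside 1.25% and 2.06% of all genes. The median of the members was 0.03. ATF3 had the largest difference, with a value of -0.16 under ERα17p and 0.40 under estradiol, a gap of -0.56 (1.47-fold) with 2.39% of genes lower. All 3 of its probe sets were below estradiol, between -0.68 and -0.06. After quantile normalisation, which draws on all 3 arrays including vehicle, ATF3 passed the limit at -0.68. FOSB was at the other end, 0.35 higher with ERα17p, with 93.2% of genes below it. FOSL1 was at -0.23, and the other 5 members lay between -0.01 and 0.11. The JUN probe set 213281_at was 0.72 higher with ERα17p, and the other 3 JUN probe sets differed by -0.04 to 0.05. With 1 array each, no interval can be put on these differences, and they do not show that the treatments act alike.

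Genes whose values on the 3 arrays were most like those of the 4 members at least 2-fold lower were sought among genes with 2 or more probe sets, by Euclidean distance over the 3 gene values. For FOS the nearest were SESN2 (distance 0.31), BDP1 (0.63) and PPP1R10 (0.63). For FOSB they were PPP1R10 (0.19), BDP1 (0.22) and RASEF (0.22). For JUN they were RUVBL2 (0.05), DAXX (0.07) and SDC1 (0.08), and for JUNB they were BDP1 (0.08), RUSC1-AS1 (0.18) and SMTN (0.20). Their vehicle values lay between 0.99 for DAXX and 1.76 for PPP1R10. High vehicle values follow from the choice itself, since the members they were matched to had them. Over 3 arrays such likeness is only a description.

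Other bZIP genes, several of which can pair with AP-1 subunits, had medians near 0. Of 13 measured, 1 was at least 1.5-fold lower and 1 higher with estradiol, and 1 was lower and 0 higher with ERα17p, with medians of 0.09 and 0.15. Each count of 1 is 7.69% of the list. Over all genes the shares were 8.25% lower and 10.4% higher with estradiol, and 8.53% lower and 9.27% higher with ERα17p. BATF3, a partner of JUN proteins in immune cells, was the lowest, at 0.00 with estradiol and -0.50 with ERα17p, against 0.79 with vehicle, or differences of -0.79 and -1.29. After quantile normalisation the estradiol counts were 2 higher and 0 lower. ATF2, a JUN partner activated by stress kinases, was 0.79 and 0.45 higher than vehicle. DDIT3, a stress-induced bZIP factor, differed by -0.42 and -0.56, and BATF2 by -0.44 and -0.55, short of the limit. Between ERα17p and estradiol 0 of 13 were called, with a median of -0.11.

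Of 19 measured kinases and factors upstream of AP-1 genes, 4 passed 1.5-fold upward and 1 downward with each treatment, that is 21.1% and 5.26% of the list. Over all genes the shares were 10.4% higher and 8.25% lower with estradiol, and 9.27% higher and 8.53% lower with ERα17p. The medians were 0.14 with estradiol and 0.10 with ERα17p. RPS6KA3, which encodes the growth factor kinase RSK2, was 2.18 higher with estradiol and 2.23 higher with ERα17p, with both of its probe sets at 1.67 or above. MAP2K4, an activator of the JUN kinases, was 1.06 higher with each, and MAP2K1, which encodes the ERK activator MEK1, was 0.74 and 0.77 higher. RPS6KA1, which encodes RSK1, was the lowest, at -0.77 and -0.83. Between ERα17p and estradiol 0 of 19 were called, with a median of 0.03.

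MAPK phosphatases and mRNA decay factors shorten AP-1 induction. With estradiol 1 of the 12 measured (8.33%) was past 1.5-fold upward and 0 downward. With ERα17p these counts were 2 (16.7%) and 1 (8.33%). Over all genes the shares were 10.4% higher and 8.25% lower with estradiol, and 9.27% and 8.53% with ERα17p. The medians of the list were -0.12 and -0.20. Probe sets of some of these genes disagreed, and with their mean in place of the median 2 genes were lower with each treatment. DUSP6, a phosphatase of ERK, was 1.07 and 1.17 higher than vehicle, and DUSP10, a phosphatase of stress kinases, was 0.51 and 0.81 higher. DUSP7 was 0.37 and 0.53 higher, short of the limit, and DUSP5, a nuclear ERK phosphatase, was at -0.47 and -0.59. Between ERα17p and estradiol 0 of 12 were called, with a median of 0.04.

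Known AP-1 targets were spread to both sides. Of 21 measured, 5 passed 1.5-fold upward and 6 downward with estradiol, and 4 upward and 6 downward with ERα17p, with medians of -0.14 and -0.29. On the high side were the cytokine IL6 (3.84 and 3.41), the chemokine CXCL8 (2.64 and 2.20) and the angiogenic factor VEGFA (1.85 and 1.97). The lowest was the cytokine IL11, at -1.62 and -1.55, the only lower target among the 4 farthest from vehicle. Its 2 probe sets lay at -2.74 and -0.51 with estradiol, the second short of 1.5-fold. With ERα17p they lay at -2.31 and -0.79. The share lower was 28.6% with each treatment, beside 8.25% of all genes with estradiol and 8.53% with ERα17p. The share higher was 23.8% with estradiol, beside 10.4% of all genes, and 19.0% with ERα17p, beside 9.27%. After quantile normalisation the split was 5 higher and 4 lower with estradiol, and 5 higher and 3 lower with ERα17p. These targets have other regulators as well, so the list is no readout of AP-1 activity alone. Between ERα17p and estradiol 0 of 21 were called, with a median of 0.02.

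Of 8 mesenchymal-type breast markers, 2 were called higher and 0 lower with estradiol, and 3 were called higher and 0 lower with ERα17p (medians 0.32 and 0.53). Luminal markers had 1 of 9 higher and 1 lower with estradiol and 0 higher and 1 lower with ERα17p (0.07 and 0.03). Blood cell markers had 1 of 5 higher with estradiol and 0 with ERα17p, and 0 lower in both (0.01 and 0.04). Over all genes 10.4% were higher and 8.25% lower with estradiol, and 9.27% and 8.53% with ERα17p. The shares higher were 25.0% and 37.5% for mesenchymal markers, and each luminal count of 1 is 11.1%. The blood cell count of 1 is 20.0%.

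**Figure D4:**
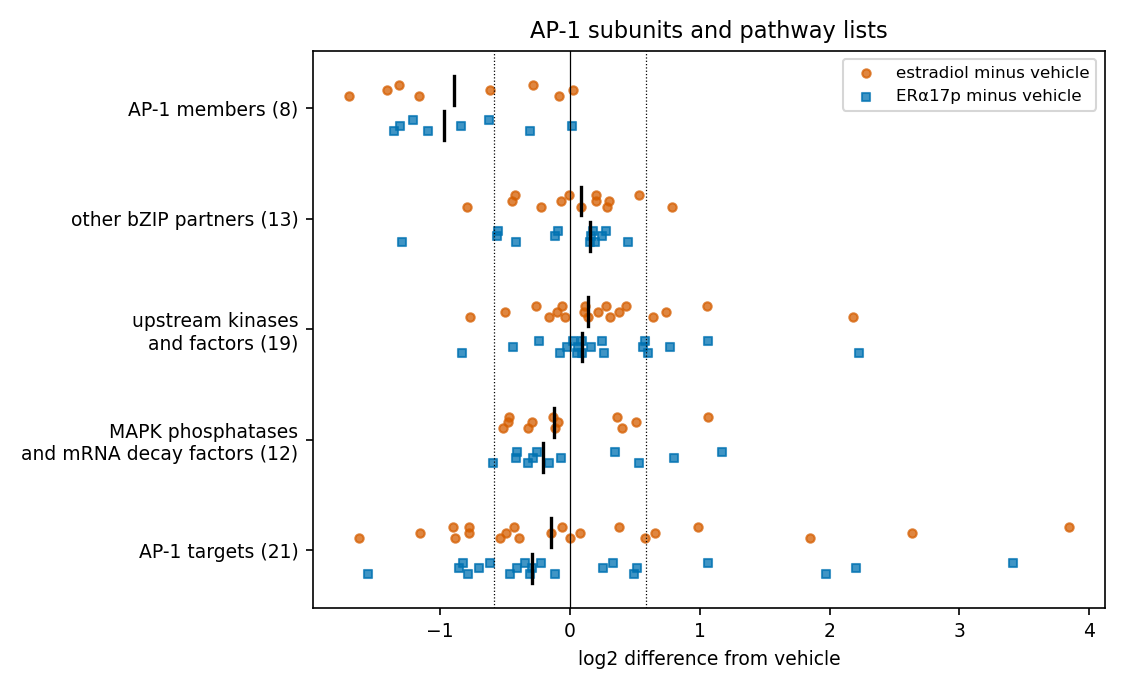
Log2 difference from vehicle (horizontal axis) of each gene in the AP-1 set and 4 pathway lists (rows, number of genes in brackets), with circles for estradiol, squares for ERα17p, black bars for list medians and dotted lines at 1.5-fold. The AP-1 medians lie at -0.89 and -0.96, and those of the other lists between -0.29 and 0.15.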

How the data were processed

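Total RNA of 3 MDA-MB-231 samples was measured on Affymetrix HG-U133 Plus 2 arrays, per the labels. The deposited values are treated as log2 values because RMA, named without a version in the submitters' processing notes, yields log2 units. No source states how the values were centred per probe set, or which logarithm was used. Exact 0 made up 8.14%, 8.54% and 7.08% of the estradiol, ERα17p and vehicle columns. Symbols came from the platform annotation: 41097 probe sets had 1 symbol, 1801 had several and 11777 were unnamed; only the first kind was used. Gene identifiers of 19734 of 19775 genes were found in the RefSeq table of GRCh38.p14.

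Probe sets were summarised by their median per gene and array, and log2 differences were taken between arrays. A gene was called at 1.5-fold, with 2-fold as the stricter limit. No test was possible with 1 array per group, and this number limits the precision. Python 3.11.15 and pandas 2.3.3 were used, and the steps were tested on simulated data. The simulated noise of all 3 arrays came from the difference between the treated arrays. It did not mimic the wider vehicle array, so it does not show how calls against vehicle behave. The members and the 7 other lists were chosen with earlier results of these data known. Named genes were all members, up to 4 per pathway list with the largest difference from vehicle, and the 3 nearest genes of members past 2-fold. Alternatives were the mean of probe sets, leaving out _s_at and _x_at probe sets, quantile normalisation, the 2-fold limit, the deposited reference in place of vehicle, and leaving out the farthest member. The median of probe set differences was added after the data were seen.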

Additional observations from a re-analysis of the deposited data

How the results depend on the processing

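Members called lower with estradiol numbered 3 after quantile normalisation and 0 against the deposited reference in place of vehicle, where 5 were called against vehicle. With ERα17p the count against the reference was 0, where 6 were called against vehicle. The estradiol median of the members was -1.32 without _s_at and _x_at probe sets (JUND then had no probe set), -0.49 after quantile normalisation, 0.028 against the reference and -0.61 without FOSB. The ERα17p median was -1.21, -0.55, -0.0027 and -0.84 under the same settings. Between ERα17p and estradiol, leaving out those probe sets called 1 member higher (JUN, from 213281_at), and quantile normalisation called 1 lower (ATF3). Against the reference the sign turned for FOS (0.44 with estradiol, 0.55 with ERα17p), JUNB (0.032, 0.14) and FOSB with ERα17p (0.32). It also turned for 2 members short of the limit, ATF3 and FOSL1 with estradiol (0.40 and 0.027). The reference replaces the vehicle array by construction, and quantile normalisation narrows the wider vehicle array by construction. The cause of the other shifts was not tested. Quantile normalisation moved the median over all genes by less than 0.1. The other 44 settings for the members' counts and medians stayed within 1.5 times of the count or 0.1 of the median. For the other lists 116 settings did so, 7 gave a higher and 3 a lower count of calls. With the mean of probe sets, 2 phosphatase and decay genes were lower with each treatment (0 with estradiol and 1 with ERα17p by the median) and 2 bZIP partners were higher with estradiol (1 by the median). After quantile normalisation, the lower AP-1 targets with ERα17p numbered 3 (6 as deposited), and phosphatase and decay genes 0 (1 as deposited). Between ERα17p and estradiol it called 1 bZIP partner and 1 target lower and 1 mesenchymal marker higher (0 each as deposited). No paired analysis was possible because each group has 1 array. Signal over background is unknown after centring.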
